A study of Mus musculus with 6 samples.

Results

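The genes described here are 39 endothelial identity genes, chosen by name as pan-endothelial, capillary, arterial, tip-cell and lymphatic genes. No rule on measured values was used, but earlier results of these data were known when the genes were chosen. The list was therefore not tested as a set. All 39 were among the 18089 genes of the deposited table, and all passed the filter on low counts that left 14395 genes for testing. The RNA came from the ischemic gastrocnemius muscle of male C57BL/6 mice, 7 days after hindlimb ischemia (HLI), in which the left femoral artery was ligated. The study compared 3 wild-type (WT) littermate muscles with 3 muscles of *Gpr174*-/Y mice with a knockout of the X-linked receptor gene *Gpr174*, and both groups had the same injury. No uninjured muscle and no other day was analysed here, so each value compares genotypes within injured muscle.

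Endothelial cells line all blood and lymphatic vessels. They hold their wall together with junction proteins such as VE-cadherin, and their identity is kept by ETS-family and SOXF transcription factors. In skeletal muscle most of them belong to capillaries that run along the fibres, and after arterial occlusion vessels both sprout (tip cells) and widen (arterial remodelling). Values in whole muscle are relative to the RNA of all its cells. Fewer endothelial cells, less RNA per endothelial cell and more RNA from other cells cannot be told apart in them.

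The libraries held between 18417107 and 19394505 estimated reads, at which 3 counts correspond to 0.155 to 0.163 CPM (counts relative to library size). Counts of *Gpr174* were 8, 2 and 5 for WT (replicates 1, 2 and 3 in turn, as in all lists below) against 1, 0 and 0 for *Gpr174*-/Y, which is in the direction of the labels at very low depth. Among 2771 abundant genes, replicate 2 lay between replicates 1 and 3 for 87.3% in WT and 75.2% in *Gpr174*-/Y, where replicates with no order among them would give 33.3%. The same held for 33 of the 39 endothelial genes in WT and 26 in *Gpr174*-/Y. The chi-square per degree of freedom between replicates ranged from 1.85 (*Gpr174*-/Y replicates 1 and 2) to 71.3 (WT replicates 1 and 3), so the spread was uneven. Every standard error and p-value below treats the libraries as independent samples of their group, which was not tested. Mature muscle fibre genes took 20.1%, 18.3% and 15.4% of counts in the WT libraries and 8.75%, 8.49% and 8.08% in the *Gpr174*-/Y libraries, so the part of each library left for other genes differed between genotypes. Values below are CPM after TMM scaling, which sets the libraries' scale by the bulk of genes, and log2 fold changes are *Gpr174*-/Y over WT.

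Most endothelial genes had lower RNA in the *Gpr174*-/Y muscles. Of the 39, 30 were lower and 3 were higher (*Vwf*, *Esm1* and *Prox1*) at an adjusted p under 0.05 by edgeR's quasi-likelihood test with Benjamini-Hochberg adjustment, and 6 did not pass. Lower calls made up 76.9% of these genes, against 27.6% of all tested genes, and higher calls 7.69% against 27%. Their median log2 fold change was -0.64 (range -1.34 to 0.77), beside 0.00 over all tested genes. Beyond a log2 fold change of -1 there were 4 genes (*Ramp2*, *Ushbp1*, *Gpihbp1* and *Aqp1*), where 4.84% of all tested genes lay, and none lay beyond 1, where 3.45% of all tested genes lay. Calls in either direction covered 54.6% of all tested genes. In 35 of the 39 genes the libraries of 1 genotype were all above those of the other, which was also so in 65.6% of all tested genes.

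**Figure D1:**
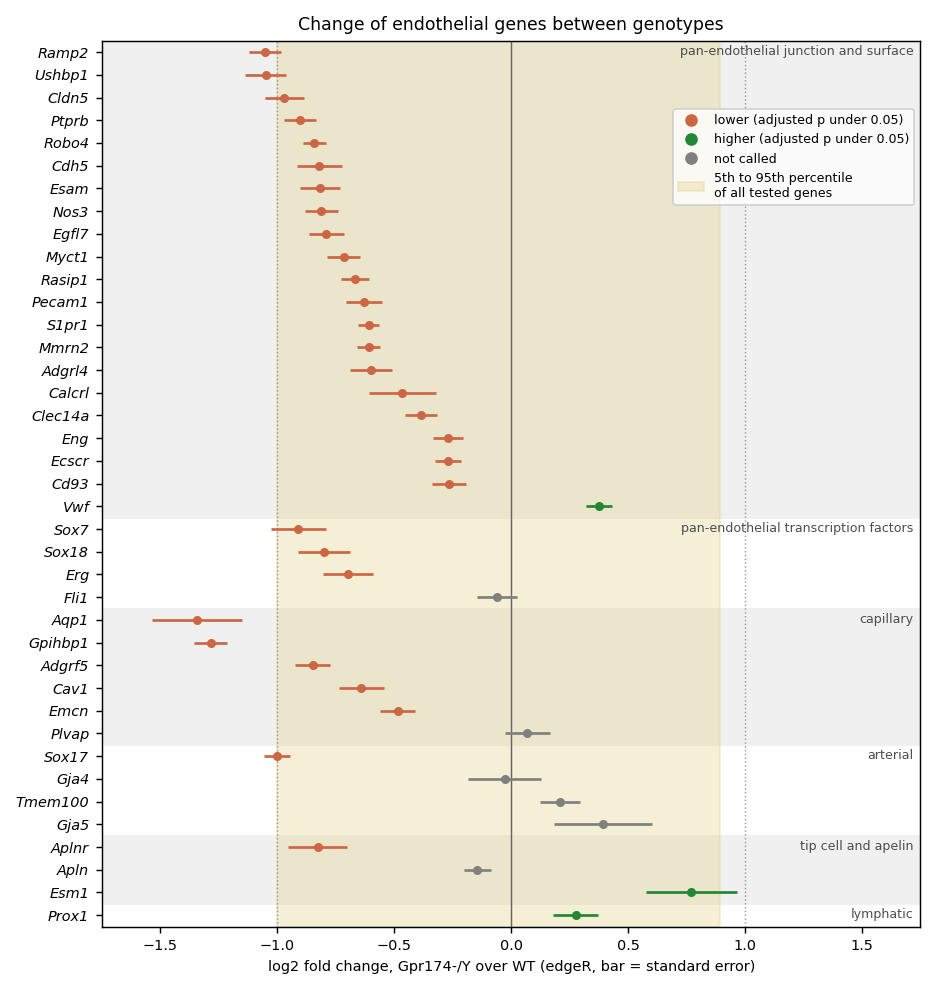
Log2 fold change of the 39 endothelial genes, *Gpr174*-/Y over WT, with the edgeR standard error as a bar, ordered within subgroups. Most points sit left of 0, 4 sit beyond -1, and the points right of 0 are *Vwf*, *Plvap*, *Tmem100*, *Gja5*, *Esm1* and *Prox1*.

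The number of calls moved with the scaling. With libraries scaled by total counts, 25 endothelial genes were lower and 7 higher (*Vwf*, *Esm1*, *Prox1*, *Fli1*, *Plvap*, *Gja5* and *Tmem100*), and their median was -0.36. That scaling raised the median of all tested genes by 0.27, so that 13.96% of them were lower and 50.73% higher. Of the 30 genes called lower, 24 were called lower in each of 16 alternatives, and the other 6 were *Clec14a*, *Eng*, *Ecscr*, *Cd93*, *Calcrl* and *Nos3*. In a further alternative with replicates 1 and 3 of each group alone no gene of any kind passed edgeR's test. At an unadjusted p under 0.05 by that test there were 27 endothelial genes, 26 of them lower. Over all 14447 genes tested in that fit there were 5026, 2670 of them lower.

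The pan-endothelial subgroup of junction and surface genes, which also holds secreted and intracellular proteins, was lower in 20 of 21 cases. Its median log2 fold change was -0.67. *Cdh5* encodes VE-cadherin, the adhesion molecule of endothelial junctions. It stood at 462.3, 431.8 and 380.1 CPM in WT against 258.9, 239.8 and 222.1 in *Gpr174*-/Y. Every WT library was above every *Gpr174*-/Y library, with a log2 fold change of -0.82 (SE 0.10, adjusted p = 0.00122). *Pecam1*, which encodes the surface protein CD31, measured 280.1, 259.1 and 241.5 CPM in WT muscle and 178.9, 167.5 and 158.6 in *Gpr174*-/Y. Its groups did not overlap either, and it fell by 0.63 on the log2 scale (SE 0.08, adjusted p = 0.00137). The study reported a higher vascular density by CD31 staining in *Gpr174*-/Y gastrocnemius on the same day, which measures protein in sections and not RNA. It also counted more endothelial cells in *Gpr174*-/Y muscle by flow cytometry, on a later day than that of the RNA. Wider artery lumens in the adductor muscle and less hypoxia were reported too. Both defining markers were thus present in all 6 muscles, and with total-count scaling *Cdh5* and *Pecam1* stayed lower, at log2 fold changes of -0.55 and -0.35. *Cldn5*, a tight junction protein, and *Esam*, an adhesion molecule, fell by 0.97 and 0.82.

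The largest decreases of this subgroup were in *Ramp2* and *Ushbp1*. *Ramp2* encodes a partner protein that makes the receptor Calcrl respond to adrenomedullin. Its CPM was 69.2, 65.5 and 61.2 in WT and 33.4, 31.2 and 29.8 in *Gpr174*-/Y, a log2 fold change of -1.05 (SE 0.07, adjusted p = 0.000425) without overlap. *Calcrl* itself measured 32.3, 25.9 and 21.2 CPM against 19.5, 19.02 and 18.9. The lowest WT library of *Calcrl* was close to the *Gpr174*-/Y libraries, and its decrease of 0.47 (SE 0.14, adjusted p = 0.0308) passed in 8 of 17 alternatives and was 0.29 without WT replicate 1. *Ushbp1* had 41.4, 38.3 and 34.7 CPM in WT against 19.96, 18.1 and 17.2 in *Gpr174*-/Y (log2 fold change -1.05, SE 0.09, adjusted p = 0.000679). Its WT libraries were all well above the *Gpr174*-/Y libraries.

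Receptors and signalling proteins of the vessel wall made up most of the remaining genes of this subgroup. *Ptprb*, the endothelial receptor phosphatase, *Robo4*, a guidance receptor, *Nos3*, endothelial nitric oxide synthase, *Egfl7*, a secreted vascular protein, and *Myct1* fell by 0.72 to 0.90 on the log2 scale. *Rasip1*, a regulator of small GTPases, *S1pr1*, the sphingosine 1-phosphate receptor, *Mmrn2*, an endothelial matrix protein, and the adhesion receptor *Adgrl4* fell by 0.60 to 0.67. When each gene was represented by its most abundant transcript, *Nos3* had a log2 fold change of -0.17 (adjusted p = 0.936 by edgeR).

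Smaller differences were found in *Clec14a*, *Eng*, *Ecscr* and *Cd93*, with log2 fold changes of -0.38, -0.27, -0.27 and -0.27. *Eng* encodes endoglin, a co-receptor for TGF-beta family ligands, and measured 173.6, 181.7 and 190.2 CPM in WT against 156.6, 153.0 and 142.7 in *Gpr174*-/Y. The groups did not overlap on this scale, but with total-count scaling the log2 fold changes of *Eng*, *Ecscr* and *Cd93* were 0.00, 0.00 and 0.01. *Eng* and *Cd93* are also made by myeloid cells. The part of such cells in these values was not tested, and 8 of 9 macrophage markers were higher in *Gpr174*-/Y, with a summed TPM of 2163 to 3740 in WT and 6742 to 7201 in *Gpr174*-/Y.

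*Vwf* was the exception among these 21 genes. It encodes von Willebrand factor, the clotting protein that endothelial cells store and that megakaryocytes and platelets also carry. Its CPM was 42.9, 44.1 and 47.4 in WT and 59.1, 58.7 and 56.6 in *Gpr174*-/Y. All 3 *Gpr174*-/Y libraries were above all WT libraries, by a log2 fold change of 0.38 (SE 0.05, adjusted p = 0.00205), which fell to 0.20 (adjusted p = 0.18 by edgeR) on the most abundant transcript. Of the platelet markers, 1 of 3 tested was called higher (*Pf4*, log2 fold change 1.38), while *Gp1bb* stood at 0.46 and *Itga2b* at -0.17 (adjusted p = 0.114 and 0.41 by edgeR). In the fit without the filter on low counts, *Ppbp* was at 1.81 (adjusted p = 0.0314 by edgeR) and *Gp9* at -0.59 (adjusted p = 0.597 by edgeR). The summed TPM of the 5 platelet markers was 32.9 to 64.4 in WT and 148.4 to 154.6 in *Gpr174*-/Y. Nearly all of this sum was *Pf4* alone, at 30.1 to 60.8 TPM in WT and 142.8 to 148.2 in *Gpr174*-/Y. The part of platelets in the *Vwf* value was not tested.

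**Figure D2:**
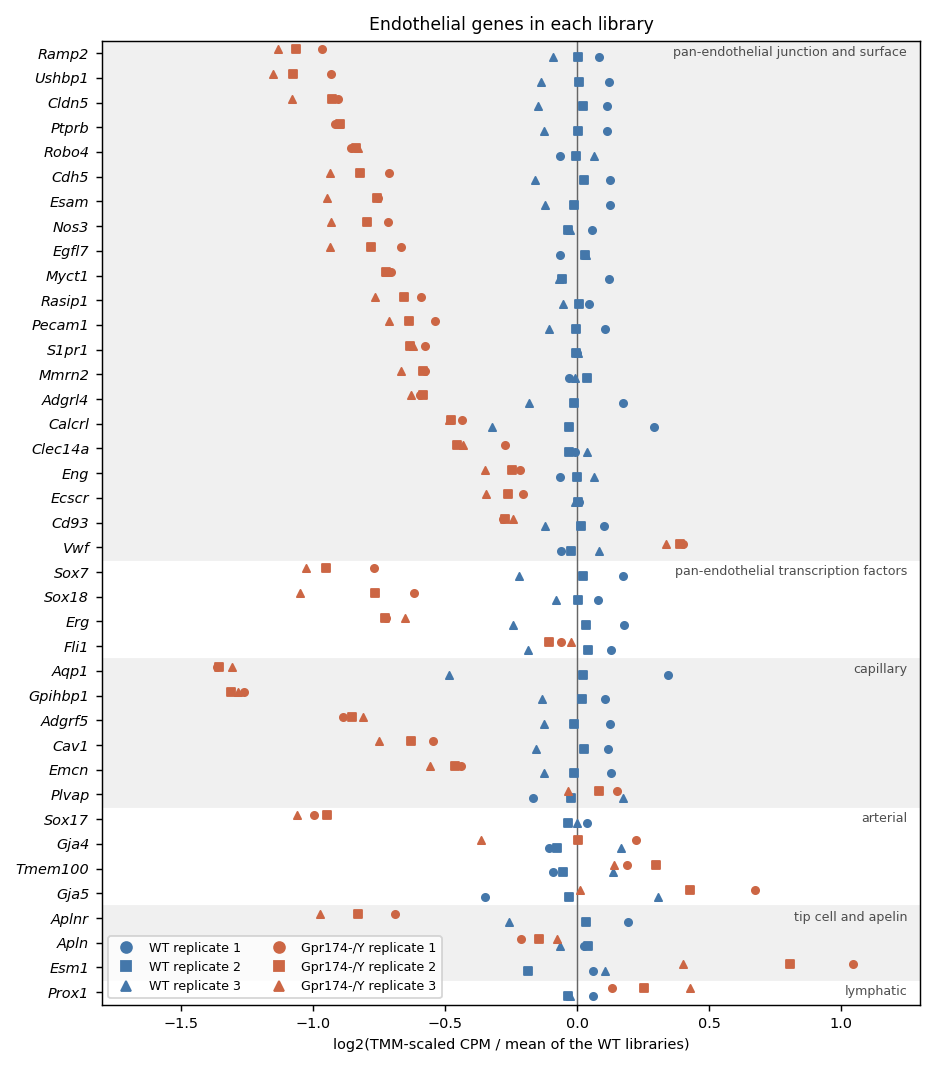
Level of each endothelial gene in each of the 6 libraries, as log2 of its TMM-scaled CPM over the mean of the WT libraries, with WT in blue, *Gpr174*-/Y in orange and a symbol for each replicate. The genotypes separate in 35 of 39 genes, and *Aqp1* shows the widest spread among the WT libraries.

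Of the transcription factors, the SOXF genes *Sox7* and *Sox18* and the ETS factor *Erg* were lower, and the ETS factor *Fli1* was not called. *Sox7* measured 40.9, 36.8 and 31.1 CPM in WT against 21.3, 18.8 and 17.8 in *Gpr174*-/Y, without overlap (log2 fold change -0.91, SE 0.12, adjusted p = 0.00146). *Sox18* and *Erg* had log2 fold changes of -0.80 and -0.70. The most abundant of 11 transcripts of *Erg*, which held only 25.1% of its counts, was at -2.27 (adjusted p = 0.0238 by edgeR). *Fli1*, which blood cells also express, had 33.7, 31.7 and 27.1 CPM in WT against 29.5, 28.7 and 30.3 in *Gpr174*-/Y. These ranges overlapped, and its log2 fold change was -0.06 (SE 0.09, adjusted p = 0.56) but 0.21, and called higher, with total-count scaling.

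Capillary genes held the largest decreases of all 39. *Aqp1* encodes the water channel of continuous capillaries, which red blood cells also carry. It fell from 248.2, 198.6 and 139.7 CPM in WT to 76.0, 76.3 and 78.9 in *Gpr174*-/Y, a log2 fold change of -1.34 (SE 0.19, adjusted p = 0.00197). The WT libraries differed widely while the *Gpr174*-/Y libraries lay close together. The 3 erythroid markers tested were not called, with log2 fold changes between 0.32 and 0.43.

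*Gpihbp1* anchors lipoprotein lipase to the capillary surface, where it releases fatty acids for muscle. It had 64.6, 60.7 and 54.7 CPM in WT against 25.0, 24.2 and 24.6 in *Gpr174*-/Y (log2 fold change -1.29, SE 0.07, adjusted p = 0.000312). The lowest WT library was far above the highest *Gpr174*-/Y library. *Adgrf5*, an adhesion receptor, *Cav1*, the coat protein of caveolae, and *Emcn*, a sialomucin of capillaries and veins, were lower by log2 fold changes of -0.85, -0.64 and -0.49. *Plvap*, which forms the diaphragms of fenestrated and newly formed vessels, stood at 71.9, 79.5 and 91.0 CPM in WT against 89.8, 85.7 and 78.9 in *Gpr174*-/Y. These ranges overlapped and the gene was not called (log2 fold change 0.07, SE 0.10, adjusted p = 0.566), but with total-count scaling it was called higher (0.34, adjusted p = 0.0386 by edgeR).

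Of the 4 arterial genes, 1 was lower and 3 were not called (median 0.09). *Sox17*, the SOXF factor of arteries, was lower, at 33.7, 32.1 and 32.8 CPM in WT against 16.5, 17.0 and 15.8 in *Gpr174*-/Y (log2 fold change -1, SE 0.06, adjusted p = 0.000312). Its replicates lay close together and the groups were far apart. *Gja5*, which encodes the arterial gap junction protein connexin 40, measured 15.9, 19.8 and 25.1 CPM in WT against 32.3, 27.2 and 20.4 in *Gpr174*-/Y. Its ranges overlapped, and the log2 fold change of 0.39 (SE 0.21, adjusted p = 0.155) was not called. *Gja4*, encoding connexin 37, and *Tmem100* had log2 fold changes of -0.03 (SE 0.15, adjusted p = 0.888) and 0.21 (SE 0.09, adjusted p = 0.0757). With total-count scaling *Gja5* and *Tmem100* were called higher (0.65 and 0.48, adjusted p = 0.0366 and 0.00666 by edgeR) and *Gja4* stood at 0.24 (adjusted p = 0.225).

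The apelin receptor was lower in *Gpr174*-/Y, and its ligand was not called. *Aplnr*, the receptor, had 116.4, 104.2 and 85.1 CPM in WT against 63.1, 57.3 and 51.9 in *Gpr174*-/Y, without overlap (log2 fold change -0.83, SE 0.13, adjusted p = 0.00239). *Apln*, the ligand, which sprouting tip cells make, had 57.7, 58.2 and 54.1 CPM against 48.9, 51.3 and 53.7. The nearest libraries of both groups lay side by side, and it was not called (log2 fold change -0.14, SE 0.06, adjusted p = 0.0664). *Esm1*, a secreted proteoglycan and tip-cell marker, was scarce, with 42, 37 and 48 counts in WT and 108, 93 and 71 in *Gpr174*-/Y. In CPM these were 2.61, 2.201 and 2.70 against 5.16, 4.38 and 3.30, a log2 fold change of 0.77 (SE 0.19, adjusted p = 0.0146). All *Gpr174*-/Y libraries were above all WT libraries, but the adjusted p by edgeR was 0.0573 without WT replicate 2 and 0.0504 without *Gpr174*-/Y replicate 2.

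*Prox1* was the only lymphatic gene of the 39. It is the master transcription factor of lymphatic endothelium and is also expressed in satellite cells and slow muscle fibres. It measured 8.77, 8.21 and 8.26 CPM in WT against 9.22, 10.03 and 11.3 in *Gpr174*-/Y, a log2 fold change of 0.28 (SE 0.10, adjusted p = 0.0465) in groups that lay next to each other. The call was kept in 8 of 17 alternatives, with an adjusted p by edgeR or the other tools of up to 0.31. Of 10 satellite cell and regenerating fibre markers, 7 were higher and none lower, while the slow-fibre genes *Myl2*, *Myl3* and *Myh7* were lower (log2 fold changes -4.29, -4.11 and -1.43) and *Tnnt1* and *Tnni1* were not called (0.03 and 0.49). The part of either in the *Prox1* value was not tested.

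Promoter windows from RefSeq (build GRCm38.p6) were matched for 20 of the 39 genes. The motif searched was the ETS core, CGGAAG or AGGAAG on either strand, since *Erg* and *Fli1* are ETS factors. It occurred in 14 of 27 windows of the endothelial genes (51.9%) and in 39.2% of all 32851 windows of the same length. Among the matched genes it was found in 11 of 15 that were lower and 2 of 5 others, counting a match in any window of a gene. Genes with several windows, such as *Egfl7* and *Erg*, had more chances of a match. The same share over all genes was not counted, and some windows overlapped exons of their own gene. ACAATG, a SOX core, was in 7.41% of the endothelial windows and 10.7% of all, and GTAAACA, a FOX core, in none of 27 and 3.17% of all. These are matches of letters and not tested binding sites. Windows of 250 bases before the RefSeq start are shown 5′ to 3′ on the + strand, with ETS matches in capitals. The genes are that with the largest decrease (*Aqp1*), one with a small decrease (*Eng*), an arterial gene not called (*Gja5*) and that with the largest increase (*Esm1*). These windows lie at chr6:55336049-55336298, chr2:32646345-32646594, chr3:97032152-97032401 and chr13:113209409-113209658, and none overlaps an annotated exon. The bases just after the window were found in an annotated transcript of the gene for *Eng* and *Esm1*. For *Aqp1* and *Gja5* they were not, so the start of these genes is less certain.
Aqp1: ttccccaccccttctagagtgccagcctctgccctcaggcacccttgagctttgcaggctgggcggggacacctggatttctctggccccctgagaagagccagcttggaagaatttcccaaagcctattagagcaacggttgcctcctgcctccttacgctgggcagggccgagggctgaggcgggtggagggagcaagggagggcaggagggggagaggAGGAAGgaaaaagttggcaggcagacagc
Eng: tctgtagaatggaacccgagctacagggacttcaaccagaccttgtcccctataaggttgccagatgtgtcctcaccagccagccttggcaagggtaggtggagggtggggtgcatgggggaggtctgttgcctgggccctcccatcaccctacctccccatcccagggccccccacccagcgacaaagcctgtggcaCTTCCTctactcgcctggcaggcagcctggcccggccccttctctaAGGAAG
Gja5: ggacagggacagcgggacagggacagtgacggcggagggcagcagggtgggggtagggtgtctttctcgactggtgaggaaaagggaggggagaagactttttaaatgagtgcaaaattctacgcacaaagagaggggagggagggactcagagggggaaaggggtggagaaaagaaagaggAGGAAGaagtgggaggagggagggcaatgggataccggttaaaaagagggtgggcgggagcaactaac
Esm1: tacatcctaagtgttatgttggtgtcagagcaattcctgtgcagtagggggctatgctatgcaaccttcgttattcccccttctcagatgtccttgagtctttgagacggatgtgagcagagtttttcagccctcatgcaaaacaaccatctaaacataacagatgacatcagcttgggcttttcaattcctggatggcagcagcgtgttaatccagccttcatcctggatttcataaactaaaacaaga

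The windows of *Aqp1* and *Gja5* held 1 match each, that of *Eng* held 2, and that of *Esm1* held 0.

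Relative to *Cdh5* in the same library, a ratio that does not depend on library scaling, the genes spread apart. This ratio was chosen after the values were seen and is given without a test. *Cdh5* itself had a log2 fold change of -0.82, beside a median of 0.00 over all tested genes. A gene that did not change would therefore also have a higher ratio in *Gpr174*-/Y. The share of all genes with a higher ratio was not counted. Of 38 genes, 19 had a higher ratio in all *Gpr174*-/Y libraries than in any WT library, 6 had a lower one (*Aqp1*, *Gpihbp1*, *Ramp2*, *Ushbp1*, *Sox17* and *Cldn5*), and 13 overlapped. With *Pecam1* below the line these were 14, 13 and 11. The ratio of *Esm1* to *Cdh5* was 2.97 times the WT value in *Gpr174*-/Y, that of *Vwf* 2.28 times and that of *Gja5* 2.26 times. At the other end *Aqp1* stood at 0.709 and *Gpihbp1* at 0.727 times the WT value.

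**Figure D3:**
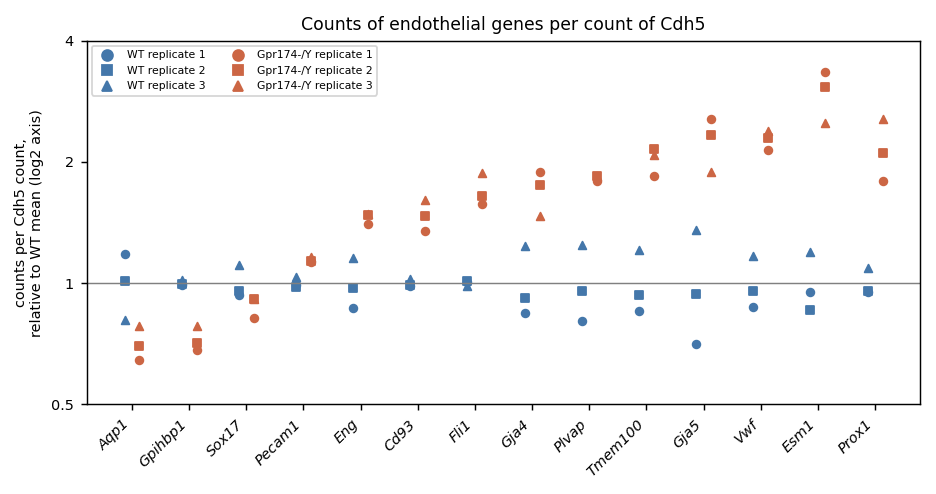
Counts of selected endothelial genes per count of *Cdh5* within each library, relative to the mean WT ratio, on a log2 axis. *Esm1*, *Vwf*, *Gja5* and *Prox1* lie highest in the *Gpr174*-/Y libraries, and *Aqp1* and *Gpihbp1* lie lowest.

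Levels between genes were compared in TPM, which is scaled for length but not by TMM. *Cav1*, *Cdh5* and *Pecam1* were in this order the 3 highest in both genotypes, at 435, 184 and 138.5 TPM in WT and 364.7, 136.5 and 118.5 in *Gpr174*-/Y. *Esm1* and *Prox1* were the lowest in both. Summed over the 39 genes, TPM was 2342 ± 40.6 (SD, n = 3) in WT and 1938 ± 42.0 in *Gpr174*-/Y. The summed TPM of the arterial genes overlapped between genotypes, at 53.1, 57.4 and 69.9 in WT and 81.6, 78.2 and 67.4 in *Gpr174*-/Y. They made up 2.23%, 2.45% and 3.04% of that sum in WT and 4.13%, 4.03% and 3.56% in *Gpr174*-/Y, without overlap and over a smaller sum in *Gpr174*-/Y, while the capillary genes' share was 37.6%, 36.7% and 35.2% against 34.7%, 34.9% and 35.1%. WT replicate 3 lay closest to the *Gpr174*-/Y libraries in both shares.

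Further endothelial genes were read from lists outside the 39. Of 68 tested, 34 were lower and 9 higher, with a median log2 fold change of -0.38. These were 50% and 13.2%, against 27.6% and 27% of all tested genes. Other capillary genes had 10 of 12 lower (median -0.97), among them *Car4*, a capillary carbonic anhydrase, with 71, 50 and 31 counts in WT and 4, 4 and 3 in *Gpr174*-/Y (log2 fold change -4.08). Other pan-endothelial genes had 15 of 21 lower and 2 higher, with the largest change in *Arhgef15* (-1.18). Other arterial genes had 3 of 9 lower, including the Notch ligand *Dll4* (-0.51), and none higher. Venous genes had 1 of 7 lower and 2 higher, led by the adhesion molecule *Vcam1* (0.68), which other cells also make. Tip-cell genes had 4 of 12 lower and 2 higher, led by the chemokine receptor *Cxcr4* (0.63), and lymphatic genes 1 of 7 lower and 2 higher, led by *Pdpn* (0.69). Leukocytes make *Cxcr4* and fibroblasts make *Pdpn*.

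**Figure D4:**
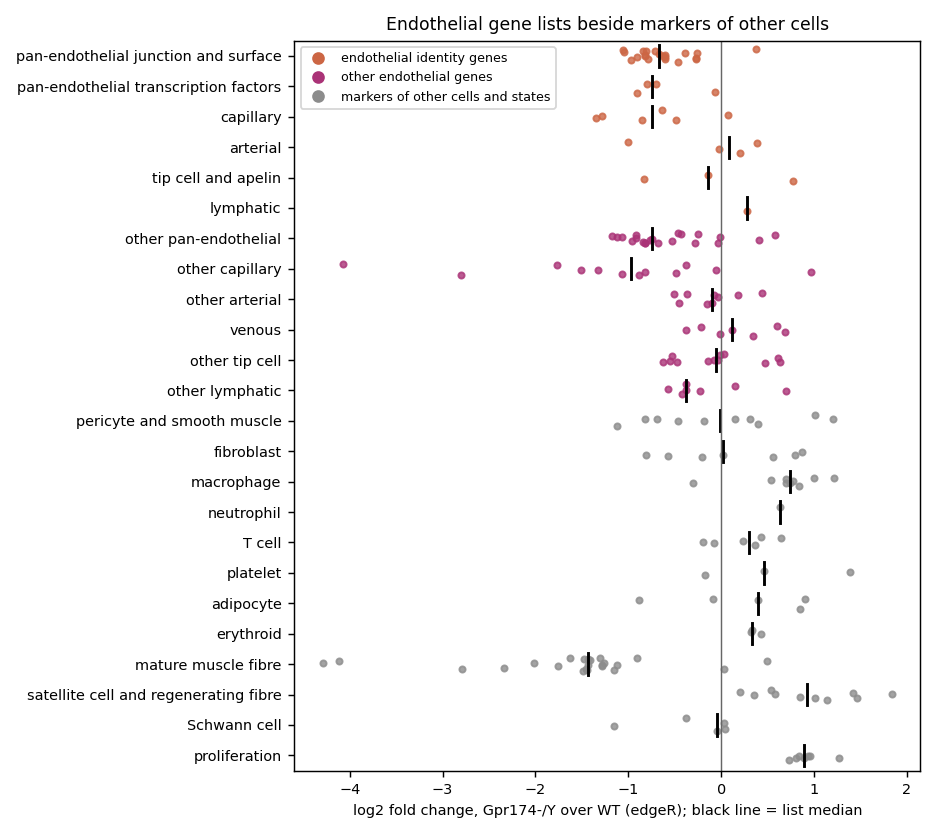
Log2 fold changes of the tested genes in each endothelial subgroup and in the marker lists of other cell types, with the median of each list. Pan-endothelial and capillary genes lie mainly below 0, arterial, venous and tip-cell genes lie around 0, mature fibre genes lie lowest, and macrophage and proliferation genes lie above 0.

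Markers of other cells were read in the same way, where 27.6% of all tested genes were lower and 27% higher. Mature fibre genes were lower in 21 of 23 (median -1.43), satellite cell and regenerating fibre genes higher in 7 of 10 (median 0.93), macrophage genes higher in 8 of 9 (median 0.74) and proliferation genes higher in 7 of 7 (median 0.89). Pericyte and smooth muscle genes, which mark the cells around vessels, were lower in 4 and higher in 4 of 10 (median -0.02). Fibroblast genes were lower in 3 and higher in 3 of 7, adipocyte genes higher in 2 of 5 and Schwann cell genes lower in 1 of 5. None of 6 T cell genes tested was called. Of 5 neutrophil genes only *Csf3r* passed the filter on low counts, and it was higher (0.63). In the fit without that filter *S100a8*, *S100a9*, *Ly6g* and *Retnlg* were at -0.05, -0.60, 1.77 and 1.08, at very few counts (adjusted p from 0.41 to 0.94 by edgeR). The part of these cell types in the endothelial values was not tested.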

How the data were processed

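RNA of ischemic gastrocnemius muscle from 3 WT and 3 *Gpr174*-/Y mice was sequenced on the BGISEQ-500. The authors deposited 1 table of 58843 transcripts with expected counts, the reads estimated for each transcript by the counting program and not normalized. The deposited table also holds FPKM, scaled by the authors for length and library size, and TPM for each library. Group averages in it were not used. The submitters' processing notes name HISAT2 2.0.4, Bowtie2 2.2.5, RSEM 1.2.12 and GRCm39, without roles. The use of strand is not given in the sources used here.

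Samples were grouped by their labels. Expected counts were summed per Entrez gene and rounded, which gave 18089 genes, 99.71% of them with a symbol. Genes were tested with edgeR 4.0.16 in R 4.3.3 (TMM scaling, filterByExpr, robust quasi-likelihood F-test, Benjamini-Hochberg adjustment over 14395 genes), in place of the DEGseq program that the study names. A standard error is the absolute log2 fold change divided by the square root of F. The thresholds were an adjusted p of 0.05 and, where stated, an absolute log2 fold change of 1. The common dispersion was 0.00967. P-values measure the spread between these 3 libraries a group, taken as independent, and counting floors cover counting error only. The script was tested on simulated data.

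The 39 genes and all lists were chosen with earlier results of these data known, so no list was tested. Library values are given for *Pecam1* and *Cdh5*, for the extremes of each subgroup, for genes past both thresholds and for genes called higher. From each other endothelial list the called gene with the largest change is named. *Eng*, *Calcrl*, *Apln*, *Gja4*, *Tmem100*, *Nos3*, *Clec14a*, *Ecscr*, *Cd93*, *Erg*, *Sox18*, the platelet genes, the neutrophil genes and the slow-fibre genes were singled out after their values were seen.

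Alternatives were DESeq2 1.42.0, upper-quartile, total-count and outside-fibre scaling, other filters, the most abundant transcript, limma 3.58.1 on log2(FPKM + 1) and log2(FPKM + 0.1), a replicate block, leaving out each library, and replicates 1 and 3 only. Promoter windows are RefSeq sequences on GRCm38.p6, and the deposited table holds no coordinates.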

Additional observations from a re-analysis of the deposited data

How the results depend on the processing

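The direction and side of the threshold were kept in 563 of 663 refits of single endothelial genes, while 64 lost the call, 12 gained it and 24 changed sign. With replicates 1 and 3 of each group alone, 0 genes passed edgeR's test (5026 at an unadjusted p under 0.05), so 0 endothelial genes were lower, 0 higher and 0 past both thresholds, and 0 other endothelial genes were lower or higher. Over all genes, 7863 calls became 4617 on the most abundant transcript, and 1193 genes past both thresholds became 645 with limma on log2(FPKM + 1) and 1826 without WT replicate 3. The 3 higher endothelial genes became 7 with total-count scaling and with either limma fit, and 1 on the most abundant transcript. The 4 past both thresholds became 2 with total-count scaling, 2 with outside-fibre scaling and 1 with either limma fit. The 9 higher other endothelial genes became 19 with total-count scaling and 18 with either limma fit.

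Leaving out 1 library gave 5457 to 9165 calls, 924 to 1826 past both thresholds, 28 to 31 lower, 1 to 3 higher and 3 to 6 past both thresholds among the endothelial genes, and 31 to 37 lower and 7 to 11 higher among the others. The 1 came without WT replicate 2 and without *Gpr174*-/Y replicate 2.

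Signs changed, for total-count scaling, limma with 1 and limma with 0.1 in turn, in *Eng* (0, 0.0019 and 0.002), *Cd93* (0.0115, 0.0112 and 0.0114), *Ecscr* (0.0041, 0.0081 and 0.0084), *Fli1* (0.2144, 0.2052 and 0.2242), *Gja4* (0.2384, 0.2137 and 0.2307) and *Apln* (0.1308, 0.1219 and 0.1281). With outside-fibre scaling *Fli1* was 0.0543 and *Gja4* 0.0835. Leaving out 1 library gave *Fli1* -0.1407 to 0.0147, *Plvap* -0.0009 to 0.1706 and *Gja4* -0.1689 to 0.1158 (0.0705 without WT replicate 3). Beyond scaling and the number of samples the cause was not tested.

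Same-numbered libraries are different mice, and their deviations did not correlate (r between -0.02 and 0.00055 over genes). With the replicate number as a block, 29 endothelial genes were lower and 2 higher, of 6810 genes called. Groups of 3 limit what small differences can show.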
